A study of Mus musculus with 15 samples.

Results

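Hsd11b1 and 8 other genes of glucocorticoid activation, sensing and response were followed through submandibular glands of irradiated mice. The 9 symbols were selected around the change of Hsd11b1 under vesicle treatment at day 30, so that difference chose the genes and is given here without a test. All 9 were among the 21013 gene symbols counted, and 8 of them passed the low-count filter that left 16042 genes for testing.

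The glands came from male wild-type C57BL/6 mice aged 8 to 10 weeks at the start. One group was left untreated (NT, 3 samples). The 12 other samples received 15 Gy to the gland region and were collected after 4 days (IR_4d) or 30 days (IR_30d), or had weekly injections of iEVs into the gland starting on day 1 and were collected at the same days (IR_iEV_4d, IR_iEV_30d), with 3 samples in each group. The labels do not expand iEV; the series title speaks of extracellular vesicles of mesenchymal stem cells. No group received vehicle alone, so the injection and the vesicles cannot be told apart. The collection day of the NT glands is not given, and the age of the mice could therefore differ from that of the day 30 groups. The labels do not say that each sample was a separate mouse, so the p-values cover only the variation among these samples, and that variation may be technical.

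Glucocorticoids circulate in active and inactive forms. The enzyme 11β-HSD1, encoded by Hsd11b1, regenerates the active hormone inside cells with NADPH supplied by hexose-6-phosphate dehydrogenase, and 11β-HSD2, encoded by Hsd11b2, inactivates it. The active hormone binds the glucocorticoid receptor (Nr3c1) and the mineralocorticoid receptor (Nr3c2), which then act on target genes. Fkbp5 encodes FKBP51, a chaperone that lowers the receptor's affinity for hormone. Tsc22d3 encodes GILZ, an anti-inflammatory mediator. Sgk1 encodes a kinase that raises sodium channel activity. Zbtb16 encodes the transcription factor PLZF, and Dusp1 a phosphatase that switches off MAP kinases. Fkbp5, Tsc22d3, Sgk1, Zbtb16 and Dusp1 are all known to be induced by glucocorticoids in many tissues.

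The sequence before the annotated start of Hsd11b1 is shown beside that of Sgk1, because among the members' promoters the palindromic response element of the receptor was found in a single Sgk1 window. Windows came from RefSeq on GRCm38.p6, while the counts were made on GRCm39, so coordinates are those of GRCm38.p6. Of the 9 members, 6 had 13 windows between them, with 6 for Sgk1 and 3 for Tsc22d3. Both sequences run 5′ to 3′ over the 250 bases before the start, Hsd11b1 from chr1:193242361-193242610 (minus strand) and Sgk1 from chr10:21993640-21993889 (plus strand). Capitals mark matches to the receptor's single recognition site and to its palindrome.
Hsd11b1: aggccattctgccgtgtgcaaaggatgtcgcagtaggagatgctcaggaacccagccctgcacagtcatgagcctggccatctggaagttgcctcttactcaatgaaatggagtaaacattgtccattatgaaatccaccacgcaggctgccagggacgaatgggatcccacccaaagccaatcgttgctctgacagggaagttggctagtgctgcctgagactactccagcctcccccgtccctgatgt
Sgk1: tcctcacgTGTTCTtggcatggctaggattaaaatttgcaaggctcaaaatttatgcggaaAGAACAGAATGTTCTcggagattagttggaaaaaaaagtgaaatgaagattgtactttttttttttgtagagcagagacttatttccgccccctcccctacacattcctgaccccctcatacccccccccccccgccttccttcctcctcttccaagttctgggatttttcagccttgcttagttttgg

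The motifs were searched on both strands in windows of 300 bases that reach 50 bases past the start. The single site AGAACA occurred in 19.0% of all 32851 RefSeq windows and in 4 of the 13 windows of the members. The palindrome GNACANNNTGTNC occurred in 0.475% of all windows and in 1 of the 13, where it lay 188 to 176 bases before the Sgk1 start. The single sites at that place overlap the palindrome, and another lies farther from the start. The core of the NF-kB site, GGGNNNNNCC, occurred in 50.8% of all windows and in 8 of the 13. The Hsd11b1 window held 0 matches to each of the 3 motifs. These matches are letters in a window and say nothing of binding.

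Libraries held 29082798 to 52201098 counts, and 0 pairs of libraries were identical. In 6 libraries the level of 8 sublingual gland markers (mean log2 CPM) was above 2: NT replicate 1, IR_4d replicates 1 and 2, IR_iEV_4d replicates 2 and 3 and IR_iEV_30d replicate 2. It lay between 4.16 and 6.09 in these and between -0.56 and 1.61 in the 9 others. Submandibular tubule and duct markers, among them Egf and the kallikreins Klk1b22 and Klk1b26, had a mean log2 CPM between 8.22 and 8.68 in all 15 libraries.

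Hsd11b1 was lowest in untreated glands and highest in irradiated glands at day 30, and vesicle-treated glands of day 30 were near the untreated ones. Its levels are given as normalised read counts (CPM), a gene's share of its library's counts scaled for composition. NT glands had 42.3, 30.9 and 29.5 CPM, in the order of the replicates. IR_4d glands had 57.0, 50.4 and 65.4 CPM. All 3 lay above the NT glands.

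IR_30d glands had 116.75, 124.78 and 102.21 CPM, above every other library of the study. IR_iEV_4d glands had 53.1, 63.9 and 70.4 CPM and overlapped the IR_4d glands. IR_iEV_30d glands had 46.2, 46.6 and 38.4 CPM. They lay below all IR_30d and all day 4 glands and overlapped the NT glands, whose replicate 1 was above the lowest of them.

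By mean CPM the groups ran from NT (34.2 ± 7.05, SD, n = 3) through IR_iEV_30d (43.7 ± 4.61, SD, n = 3), IR_4d (57.6 ± 7.53, SD, n = 3) and IR_iEV_4d (62.5 ± 8.78, SD, n = 3) to IR_30d (114.58 ± 11.4, SD, n = 3). Neighbours that overlapped were NT with IR_iEV_30d, and IR_4d with IR_iEV_4d. In whole-gland RNA, fewer cells of a type and less RNA per cell cannot be told apart.

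**Figure D1:**
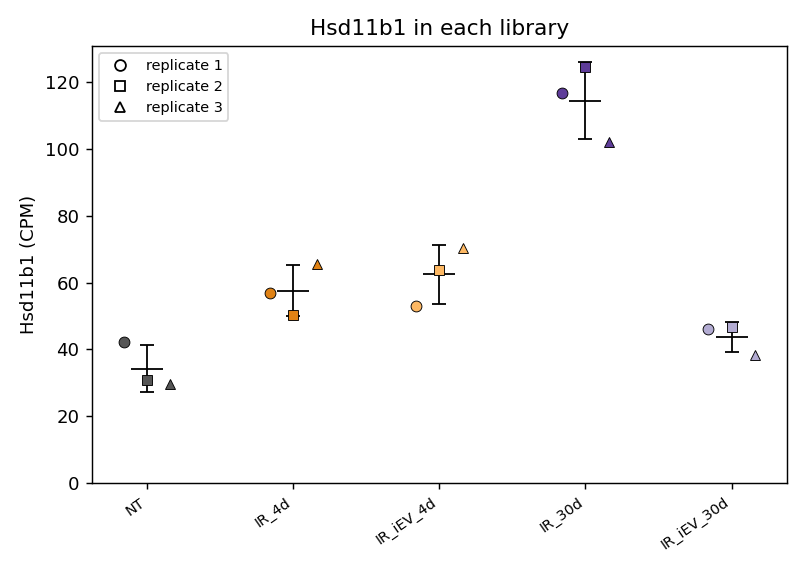
Hsd11b1 in CPM on the vertical axis in each of the 15 libraries, by group. Points are libraries with the replicate as symbol, and bars are the mean ± SD of 3; the IR_30d libraries lie between 102.21 and 124.78 CPM and the IR_iEV_30d libraries between 38.4 and 46.6 CPM.

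No day 30 library entered the day 4 differences of Hsd11b1, but their spread was estimated over all 15 libraries, those that chose the gene included. In IR_4d against NT it rose by 0.75 ± 0.15 (log2, SE), a 1.68-fold increase, with an adjusted p of 0.0133 in edgeR's quasi-likelihood test over all 16042 genes. In that comparison 1.4% of all genes passed the threshold of 0.05. The call was lost without NT replicate 2 (adjusted p = 0.0797 in edgeR), without NT replicate 3 (adjusted p = 0.0805 in edgeR) or without IR_4d replicate 3 (adjusted p = 0.0722 in edgeR). It was also lost in edgeR with only these groups in the fit (adjusted p = 0.0734) and with sublingual and adipocyte marker levels as covariates (adjusted p = 0.171), while leaving out the 6 libraries rich in sublingual markers gave a change of 1.10 ± 0.14 (edgeR adjusted p = 0.00130) with a single IR_4d library remaining, assumed to vary like the other groups.

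Vesicle-treated glands of day 4 were also above untreated ones. Hsd11b1 rose in IR_iEV_4d against NT by 0.87 ± 0.15 (log2, SE), with an edgeR adjusted p of 0.00398, where 2.31% of all genes passed. With sublingual and adipocyte levels as covariates it was 0.65 ± 0.20 and the call was lost (edgeR adjusted p = 0.354). The level of 6 parotid gland markers (mean log2 CPM) moved with both day 4 differences: it was 5.08 to 6.33 in NT, 6.59 to 10.59 in IR_4d, 9.43 to 10.66 in IR_iEV_4d, 6.19 to 8.17 in IR_30d and 5.93 to 9.31 in IR_iEV_30d. The means of Bpifa2, Amy1, Prb1 and Dnase1 were higher in both day 4 groups than in NT. Those of Car6 and Prol1, the most abundant of these markers, were lower. Car6 averaged 27594 CPM in NT, 21690 in IR_4d and 25256 in IR_iEV_4d, and Prol1 averaged 62393, 56805 and 60333 CPM. With the parotid level as a covariate, an adjustment chosen after the data were seen, both calls were lost. Hsd11b1 then differed from NT by 0.52 ± 0.16 in IR_4d (edgeR adjusted p = 0.273) and by 0.53 ± 0.20 in IR_iEV_4d (edgeR adjusted p = 0.305), and IR_iEV_30d from IR_30d by -1.41 ± 0.13. Between the day 4 groups, IR_iEV_4d against IR_4d, the difference was 0.12 ± 0.14 (log2, SE) with an edgeR adjusted p of 0.894, and 0.0312% of all genes passed.

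The day 30 differences of Hsd11b1 are a description. IR_30d exceeded NT by 1.74 ± 0.15 (log2, SE) and IR_4d by 0.99 ± 0.14. IR_iEV_30d differed from IR_30d by -1.39 ± 0.15, which is 2.62-fold lower, and from NT by 0.35 ± 0.14. The day 30 vesicle difference minus the day 4 one was -1.51 ± 0.20. With the 6 libraries rich in sublingual markers left out it was -1.10, with a single library remaining in each day 4 group. The day 4 vesicle difference was then -0.32, beside 0.12 with all libraries. IR_30d libraries enter several of these differences, so the differences are not independent of each other.

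Lamb3, which encodes a laminin chain and overlaps Hsd11b1 on the other strand, had no exonic base in common with the 4251 exonic bases of Hsd11b1 in the GRCm38 annotation (0 shared). Whether the counting used strand is not given in the sources used here. Lamb3 stood at 60.6, 64.3 and 65.8 CPM in NT, at 79.9, 94.5 and 86.1 CPM in IR_30d, and at 67.5, 64.8 and 88.6 CPM in IR_iEV_30d. Its IR_30d values all lay above those of NT, the direction in which Hsd11b1 also moved, with means of 86.9 and 63.6 CPM. Over all genes, 23.2% did not overlap in that comparison. Lamb3 differed between IR_iEV_30d and IR_30d by -0.24 ± 0.11 (log2, SE), beside -1.39 for Hsd11b1.

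Hsd11b2 was at the edge of detection. It had 24 counts over all 15 libraries, 0 in 6 of them and at most 7 in any one, and was not tested. A count of 0 allows up to 3 counts, which is 0.0555 to 0.105 CPM in these libraries and covers counting error only. A change of the inactivating enzyme was not detectable at this depth.

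Hsd11b1 is known to be expressed in adipocytes, macrophages and fibroblasts, and markers of all of these moved in some groups. The level of 14 adipocyte markers (mean log2 CPM) ranged from -1.54 to 0.89 in NT, -0.48 to 3.46 in IR_4d, 1.41 to 4.83 in IR_iEV_4d, 0.01 to 1.35 in IR_30d and -1.43 to 0.57 in IR_iEV_30d. It was highest in IR_iEV_4d, where Hsd11b1 was below its IR_30d level. Of the 14 adipocyte markers, 0 passed the edgeR threshold in IR_30d against NT and in IR_iEV_30d against IR_30d. Adipoq, which encodes the adipocyte hormone adiponectin, averaged 2.14 ± 1.29 CPM (SD, n = 3) in IR_30d and 0.446 ± 0.671 CPM (SD, n = 3) in IR_iEV_30d, where its lowest library was at 0.

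Of 15 macrophage markers 10 rose in IR_30d against NT, where 4.48% of all genes passed, including the complement gene C1qb by 0.97 ± 0.12 (log2, SE; edgeR adjusted p = 9.78e-05). Their level was 4.03 to 4.26 in IR_30d, 3.43 to 3.93 in IR_iEV_30d and 3.28 to 3.60 in NT. In IR_iEV_30d against IR_30d 0 of the 15 passed the edgeR threshold, which 0.798% of all genes passed, with a median of -0.48 against -0.01 over all genes. At an unadjusted p under 0.05 there were 10 of the 15, against 12.9% of all genes, and DESeq2 called 4 and limma-voom 0. The macrophage level was 3.16 to 3.28 in IR_4d and 3.40 to 3.53 in IR_iEV_4d, groups whose Hsd11b1 lay above NT. It lay above every other group in IR_30d, the group with the highest Hsd11b1.

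Of 14 fibroblast markers 5 fell in IR_30d against NT (4.48% of all genes passed), among them Col3a1, which encodes a fibrillar collagen, by -0.70 ± 0.18 (log2, SE; edgeR adjusted p = 0.0345). Their level was 5.72 to 5.77 in NT, 5.50 to 5.56 in IR_30d and 4.88 to 5.34 in IR_iEV_30d. Of 14 tubule and duct markers 6 rose and 2 fell in IR_30d against NT, against the same 4.48%, and Egf, which encodes epidermal growth factor, rose by 0.97 ± 0.21 (log2, SE; edgeR adjusted p = 0.0154). Their level was 8.63 to 8.68 in IR_30d, 8.35 to 8.38 in NT and 8.32 to 8.43 in IR_iEV_30d. The part of these cell types in the Hsd11b1 levels was not tested beyond the adipocyte, sublingual and parotid covariates. With the adipocyte and sublingual levels IR_30d minus NT was 1.74 and IR_iEV_30d minus IR_30d was -1.40.

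**Figure D2:**
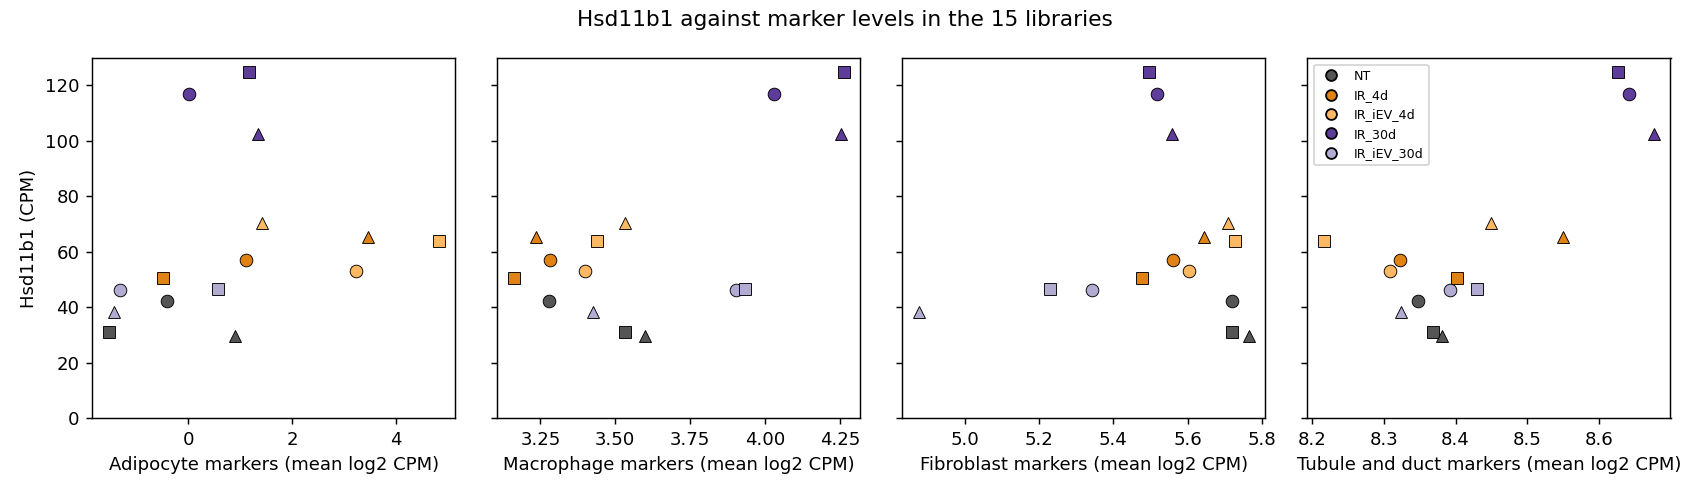
Hsd11b1 in CPM (vertical axis) against the mean log2 CPM of adipocyte, macrophage, fibroblast and tubule and duct markers (horizontal axes), 1 point per library with the group as colour and the replicate as symbol. The IR_30d libraries lie highest in macrophage level (4.03 to 4.26) and in tubule and duct level (8.63 to 8.68), while adipocyte level was highest in IR_iEV_4d.

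Genes with a pattern most like that of Hsd11b1 were found by Pearson's r of log2 CPM over the 15 libraries, among 11315 genes with a mean of at least 2 CPM. The 15 points include the 5 groups of 3, so r reflects group differences. Pnp, which encodes purine nucleoside phosphorylase, came first with r = 0.931, and Mcam, a cell adhesion molecule of endothelium and other cells, followed with r = 0.929. Stx4a (0.902), Paqr4 (0.898), Sar1b (0.885), Pfkfb1 (0.883), Rasd2 (0.882) and Nucb1 (0.880) completed the list. None of the other tested members was among them, with r from -0.204 for Nr3c2 to 0.395 for Sgk1. Hsd11b2 did not pass the low-count filter and was not compared.

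Mcam averaged 20.2 ± 1.59 CPM (SD, n = 3) in NT, 41.2 ± 1.09 CPM (SD, n = 3) in IR_30d and 24.4 ± 2.89 CPM (SD, n = 3) in IR_iEV_30d. Pnp averaged 16.5 ± 0.795 CPM (SD, n = 3) in NT, 24.8 ± 2.50 CPM (SD, n = 3) in IR_30d and 16.5 ± 0.855 CPM (SD, n = 3) in IR_iEV_30d. Both were higher in IR_30d by a smaller ratio than Hsd11b1.

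No difference of the receptors between groups passed the test. Nr3c1 stood at 40.0, 40.6 and 39.3 CPM in NT, 42.6, 36.7 and 41.6 in IR_4d and 38.1, 39.8 and 37.2 in IR_30d. In IR_30d against NT it differed by -0.06 ± 0.15 (log2, SE; edgeR adjusted p = 0.912). Vesicle-treated glands had 38.3, 32.4 and 50.3 CPM at day 4 and 37.4, 35.1 and 24.7 CPM at day 30. The day 30 values lay below all NT values, with a difference of -0.30 ± 0.15 (edgeR adjusted p = 0.405).

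Nr3c2 stood at 18.4, 16.6 and 17.8 CPM in NT, 19.2, 15.7 and 18.2 in IR_4d and 21.2, 15.6 and 15.8 in IR_30d. In IR_iEV_4d it had 15.9, 13.5 and 14.9 CPM, all below NT, a difference of -0.25 ± 0.13 (log2, SE; edgeR adjusted p = 0.351). IR_iEV_30d glands had 18.8, 17.9 and 23.1 CPM. In GRCm38 Nr3c2 shares 247 of its 6474 exonic bases with Gm10649 on the other strand, so part of its count could be read from that gene.

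Of the 5 responsive genes, Sgk1 was the one whose IR_30d values stood above those of both NT and IR_4d. Over all genes, 23.2% did not overlap in IR_30d against NT and 31.5% in IR_30d against IR_4d, in either direction. NT glands had 106.6, 184.3 and 211.5 CPM, IR_4d glands 123.4, 136.2 and 261.0 CPM, and IR_30d glands 290.0, 299.98 and 404.6 CPM. IR_iEV_4d glands had 84.6, 112.7 and 110.4 CPM and lay below IR_4d. IR_iEV_30d glands had 149.2, 252.1 and 218.4 CPM and lay below IR_30d. The set was selected on that comparison, so nothing is read from it.

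Sgk1 did not pass the edgeR threshold in any comparison. In IR_30d against NT it differed by 0.99 ± 0.33 (log2, SE; edgeR adjusted p = 0.139), and against IR_4d by 0.93 ± 0.33 (edgeR adjusted p = 0.133). Limma-voom called both, with adjusted p of 0.0475 and 0.0451. The difference between IR_iEV_4d and IR_4d was -0.76 ± 0.33 (edgeR adjusted p = 0.714). That between IR_iEV_30d and IR_30d was -0.68 ± 0.33, without a test, since the genes were selected on that comparison.

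The lowest Sgk1 values of NT and the 2 lowest of IR_4d came from libraries rich in sublingual markers, and the highest of IR_iEV_30d did too. Without the 6 such libraries, IR_30d minus NT was 0.72 ± 0.20 (log2, SE; edgeR adjusted p = 0.148) and IR_30d minus IR_4d was 0.34 ± 0.26 (edgeR adjusted p = 0.699), again with a single IR_4d library. Without IR_4d replicate 3, IR_30d minus IR_4d was 1.35 ± 0.29 and passed (edgeR adjusted p = 0.0259).

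Tsc22d3 was higher in both day 30 groups. It had 19.0, 25.5 and 26.3 CPM in NT, 23.2, 20.2 and 29.6 in IR_4d and 23.5, 26.8 and 21.0 in IR_iEV_4d. At day 30 it had 31.7, 28.3 and 38.5 CPM in IR_30d and 41.7, 27.7 and 34.2 in IR_iEV_30d, all above NT. The differences from NT were 0.48 ± 0.18 (log2, SE; edgeR adjusted p = 0.168) and 0.55 ± 0.18 (edgeR adjusted p = 0.189), and neither passed. With the sublingual and adipocyte covariates the second passed, at 0.63 ± 0.12 (edgeR adjusted p = 0.0176), in 1 of 17 alternatives only. Without the libraries rich in sublingual markers the differences from NT were 0.32 in IR_30d and 0.55 in IR_iEV_30d.

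Fkbp5 values of NT overlapped those of every other group, and both day 30 groups lay above IR_iEV_4d. It had 70.3, 131.4 and 108.6 CPM in NT, 122.3, 90.8 and 93.4 in IR_4d and 105.4, 87.4 and 77.9 in IR_iEV_4d. IR_30d glands had 157.6, 114.7 and 137.7 CPM and IR_iEV_30d glands 132.7, 151.9 and 122.6 CPM. The difference from NT was 0.40 ± 0.20 (log2, SE; edgeR adjusted p = 0.364) in IR_30d and 0.39 ± 0.20 (edgeR adjusted p = 0.432) in IR_iEV_30d. Between the day 30 groups it was -0.01 ± 0.20, without a test.

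Zbtb16 spread little within NT and IR_iEV_30d and widely within the other irradiated groups. NT glands had 13.1, 12.5 and 12.6 CPM, IR_4d glands 32.3, 17.2 and 23.2, and IR_30d glands 40.3, 15.7 and 22.9. IR_iEV_4d glands had 14.4, 18.4 and 7.87 CPM, and IR_iEV_30d glands 26.9, 26.1 and 29.2. The groups IR_4d, IR_30d and IR_iEV_30d lay above NT without overlap.

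The Zbtb16 differences from NT were 0.93 ± 0.36 (log2, SE; edgeR adjusted p = 0.322) in IR_4d, 1.05 ± 0.36 (edgeR adjusted p = 0.146) in IR_30d and 1.11 ± 0.36 (edgeR adjusted p = 0.220) in IR_iEV_30d. None passed. The last passed with only those groups in the fit (edgeR adjusted p = 0.00160). Without IR_30d replicate 1, the highest library, IR_30d minus NT was 0.60.

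Dusp1 varied widely within groups. It had 6.45, 11.2 and 26.8 CPM in NT, 6.39, 6.49 and 21.8 in IR_4d, 7.43, 8.66 and 6.33 in IR_iEV_4d, 16.3, 36.8 and 19.4 in IR_30d and 14.3, 20.3 and 43.2 in IR_iEV_30d. In IR_30d against NT it differed by 0.69 ± 0.65 (log2, SE; edgeR adjusted p = 0.704). Dusp1 is also an immediate-early gene, switched on within minutes by many stimuli, and in 4 of the 5 groups its highest library was the one with the highest level of 22 other immediate-early genes. The part of handling at collection was not tested.

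**Figure D3:**
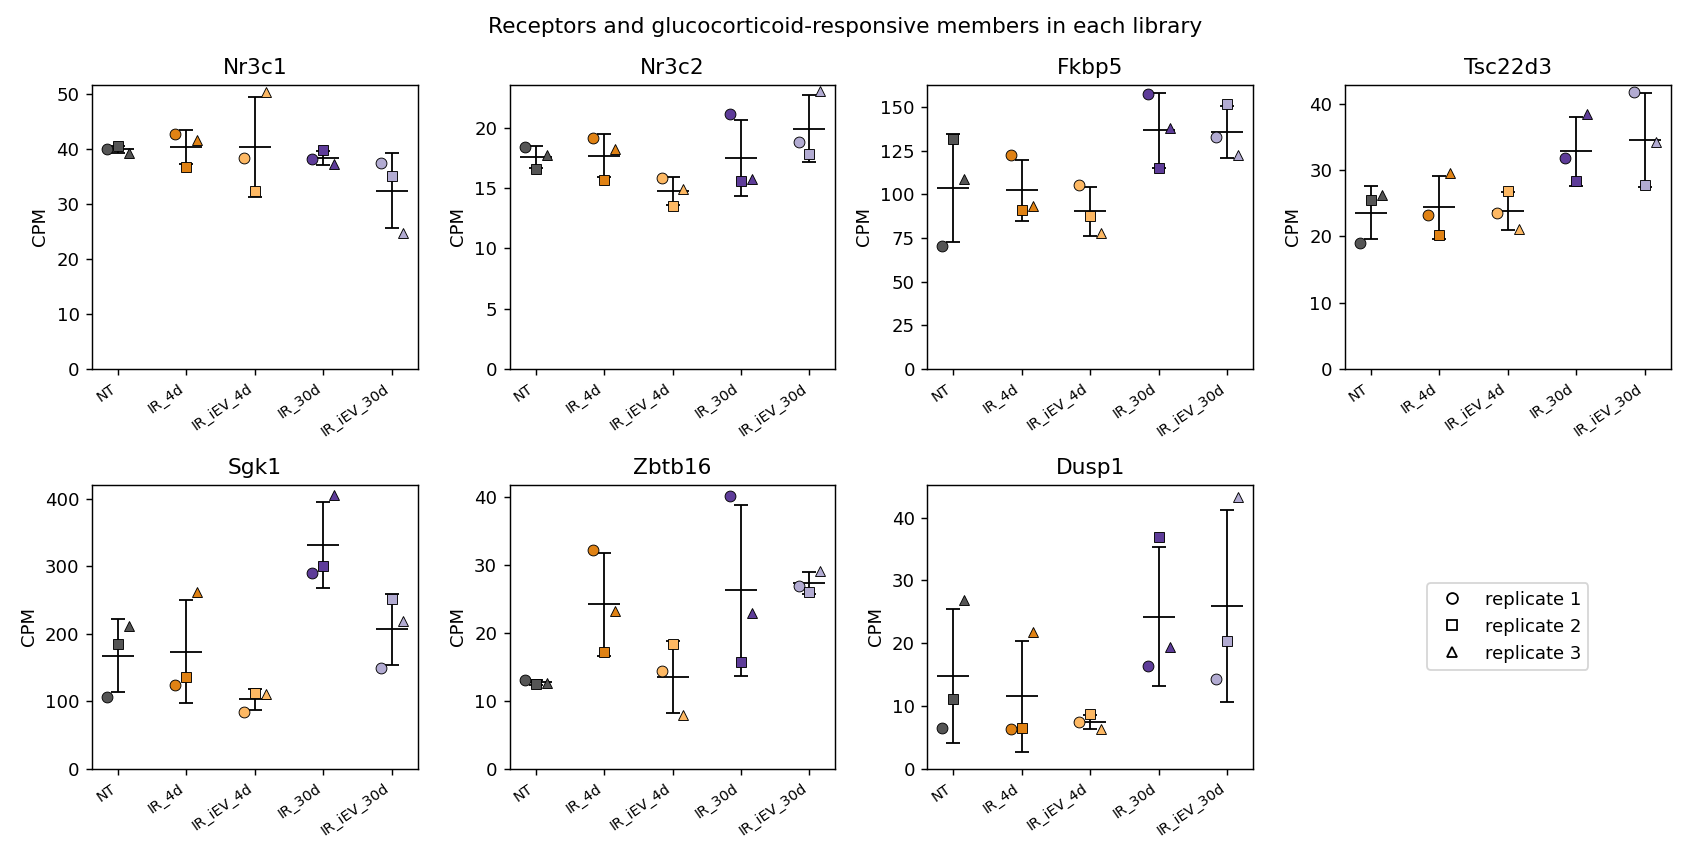
CPM of the receptors Nr3c1 and Nr3c2 and of the 5 responsive genes (vertical axes from 0) in each of the 15 libraries, by group, with the replicate as symbol and bars for the mean ± SD of 3. Sgk1 is highest in the 3 IR_30d libraries, at 290.0 to 404.6 CPM, and Dusp1 spreads from 6.45 to 26.8 CPM within NT alone.

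Of the 7 tested members other than Hsd11b1, edgeR called 0 in each of the 6 comparisons in which they were tested. At an unadjusted p under 0.05 there was 1 of 7 in IR_4d against NT (11.6% of all genes), 3 in IR_30d against NT (16.3% of all genes) and 2 in IR_iEV_4d against IR_4d (6.81% of all genes). There were 2 in IR_30d against IR_4d (19.8% of all genes), 0 in IR_iEV_4d against NT (16.6% of all genes) and 2 in IR_iEV_30d against NT (12.9% of all genes). DESeq2 called 0 in all 6, and limma-voom called 1, Sgk1, in IR_30d against NT and in IR_30d against IR_4d. After adjustment 4.48% of all genes passed in IR_30d against NT, 6.81% in IR_30d against IR_4d and 1.1% in IR_iEV_30d against NT.

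Counts of groups that did not overlap were read against the same counts over all genes. Of the 8 tested members, 2 did not overlap in IR_4d against NT (18.4% of all genes), 4 in IR_30d against NT (23.2% of all genes) and 1 in IR_iEV_4d against IR_4d (14.2% of all genes). The count was 2 in IR_30d against IR_4d (31.5% of all genes), 2 in IR_iEV_4d against NT (19% of all genes) and 3 in IR_iEV_30d against NT (17% of all genes). The 4 in IR_30d against NT were Hsd11b1, Tsc22d3, Sgk1 and Zbtb16, all higher. Hsd11b1 is in the counts of both IR_30d comparisons, whose libraries entered its selection. In IR_iEV_30d against IR_30d, the comparison the set was selected on, Hsd11b1 and Sgk1 did not overlap (19.6% of all genes), and nothing is read from that count.

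**Figure D4:**
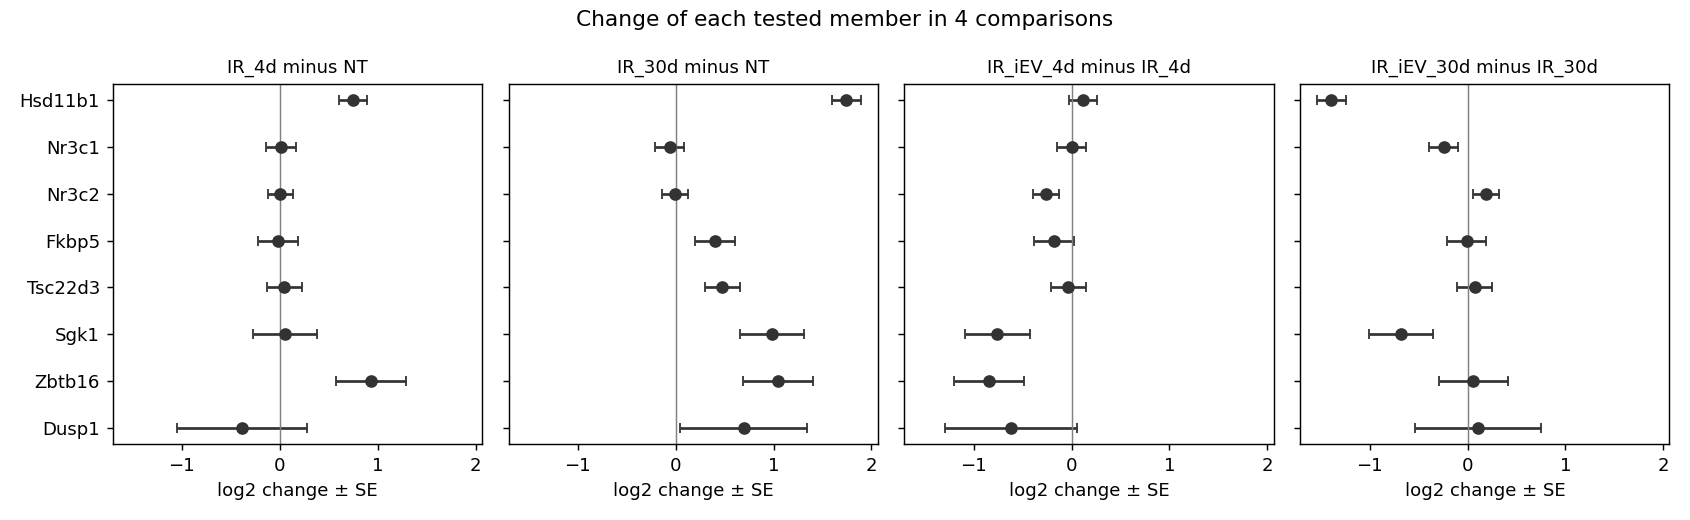
Log2 change ± SE (horizontal axis) of the 8 tested members in 4 comparisons, with a line at 0. Hsd11b1 lies at 1.74 in IR_30d minus NT and at -1.39 in IR_iEV_30d minus IR_30d, where Sgk1 lies at -0.68 and Tsc22d3, Zbtb16, Fkbp5 and Dusp1 lie between -0.01 and 0.10.

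Of 28 other known targets of the receptor 26 were tested, and in IR_30d against NT edgeR called 2 higher and 0 lower (4.48% of all genes passed), with a median of 0.08 against 0.00 over all genes. At an unadjusted p under 0.05 there were 10 of the 26, in both directions, against 16.3% of all genes, and DESeq2 called 5 and limma-voom 2. Lcn2, which encodes the iron-binding protein lipocalin 2 and also answers to inflammatory signals, averaged 24.5 ± 1.72 CPM (SD, n = 3) in NT and 134.95 ± 34.6 CPM (SD, n = 3) in IR_30d, a rise of 2.46 ± 0.31 (log2, SE; edgeR adjusted p = 0.000947). Ddit4, an inhibitor of mTOR signalling, rose by 0.67 ± 0.16 (edgeR adjusted p = 0.0246). The next lowest p belonged to Klf15 (-0.37 ± 0.11) and the metallothionein gene Mt1 (-0.48 ± 0.15). Both were lower and did not pass (edgeR adjusted p = 0.0781 and 0.0932).

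In IR_iEV_30d against IR_30d 1 of the 26 passed higher and 1 lower in edgeR, where 0.798% of all genes passed. The median was 0.12 against -0.01 over all genes. At an unadjusted p under 0.05 there were 6 of the 26, against 12.9% of all genes, and DESeq2 called 3 and limma-voom 2. Lcn2 averaged 26.6 ± 9.80 CPM (SD, n = 3) in IR_iEV_30d and was lower by -2.35 ± 0.31 (log2, SE). The metallothionein gene Mt1 averaged 35.5 ± 4.85 CPM (SD, n = 3) in IR_30d and 57.9 ± 9.05 CPM (SD, n = 3) in IR_iEV_30d, higher by 0.71 ± 0.15. The target genes thus included 1 that went with Hsd11b1 and 1 that went against it. These comparisons share the IR_30d libraries.

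At day 4, edgeR called 0 of the 26 targets in IR_4d against NT (1.4% of all genes passed) and in IR_iEV_4d against IR_4d (0.0312%). At an unadjusted p under 0.05 there were 2 in each, against 11.6% and 6.81% of all genes. DESeq2 called 1 and 0 in these comparisons and limma-voom 0 in both. The medians were -0.16 and 0.16, against 0.00 over all genes in both. In IR_iEV_30d against NT edgeR, DESeq2 and limma-voom called 0, with 6 at an unadjusted p under 0.05 in edgeR, against 12.9% of all genes.

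Of 18 cofactors and chaperones of the receptor and genes of the NADPH supply, edgeR called 1 in IR_30d against NT, a share close to the 4.48% of all genes. It was the chaperone gene Hspa8, which rose by 0.57 ± 0.12 (log2, SE; adjusted p = 0.0113). H6pd, whose enzyme makes the NADPH used by 11β-HSD1, averaged 199.41 ± 14.2 CPM (SD, n = 3) in NT, 169.87 ± 7.63 CPM (SD, n = 3) in IR_30d and 204.12 ± 30.7 CPM (SD, n = 3) in IR_iEV_30d. Its differences were -0.23 ± 0.11 for IR_30d minus NT and 0.27 ± 0.11 for IR_iEV_30d minus IR_30d, opposite in sign to those of Hsd11b1. Neither passed.

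Steroid-making and other steroid-converting enzymes had 12 tested of 19 listed. EdgeR called 0 of the 12 in IR_30d against NT, with 2 at an unadjusted p under 0.05 (16.3% of all genes), 1 by DESeq2 and 0 by limma-voom. In IR_30d against IR_4d, where 6.81% of all genes passed, 2 rose and 1 fell: the hydroxysteroid dehydrogenase genes Hsd17b11 and Hsd17b4 rose and Hsd17b12 fell. Cyp11a1, whose enzyme starts steroid synthesis, averaged 0 CPM in IR_4d and IR_30d and at most 0.0920 CPM in any group.

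Sodium transport genes downstream of the mineralocorticoid receptor and Sgk1 had 12 tested of 15, and edgeR called 0 in IR_30d against NT. At an unadjusted p under 0.05 there were 2 (16.3% of all genes), and DESeq2 and limma-voom called 0. Scnn1a, a subunit of the epithelial sodium channel, averaged 104.43 ± 8.74 CPM (SD, n = 3) in IR_30d and 142.50 ± 26.6 CPM (SD, n = 3) in IR_iEV_30d. The difference was 0.45 ± 0.11 (log2, SE) and did not pass in edgeR, and DESeq2 called 1 of the 12 genes in this comparison.

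Among 22 tested immediate-early genes, Ier5 rose in IR_4d against NT by 0.75 ± 0.14 (log2, SE; edgeR adjusted p = 0.00988) and in IR_30d against NT by 0.54 ± 0.14 (edgeR adjusted p = 0.0416), and no other passed in either. Among 17 clock genes, which bear on hormone rhythm and time of collection, Nr1d1, which encodes the clock repressor REV-ERBα, fell in IR_30d against NT by -2.90 ± 0.65 (log2, SE; edgeR adjusted p = 0.0325). EdgeR called 1 of the 17 clock genes there, and DESeq2 and limma-voom 2 each. Of the 22 immediate-early genes DESeq2 called 1 and limma-voom 0 in IR_30d against NT. Over all genes, 1.4% passed in edgeR in IR_4d against NT and 4.48% in IR_30d against NT. Nr1d1 averaged 93.5 ± 58.2 CPM (SD, n = 3) in NT, 12.6 ± 6.55 CPM (SD, n = 3) in IR_30d and 35.3 ± 18.6 CPM (SD, n = 3) in IR_iEV_30d. The hour of collection is not stated in the labels, and its part in the levels of the hormone-responsive genes was not tested.

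**Figure D5:**
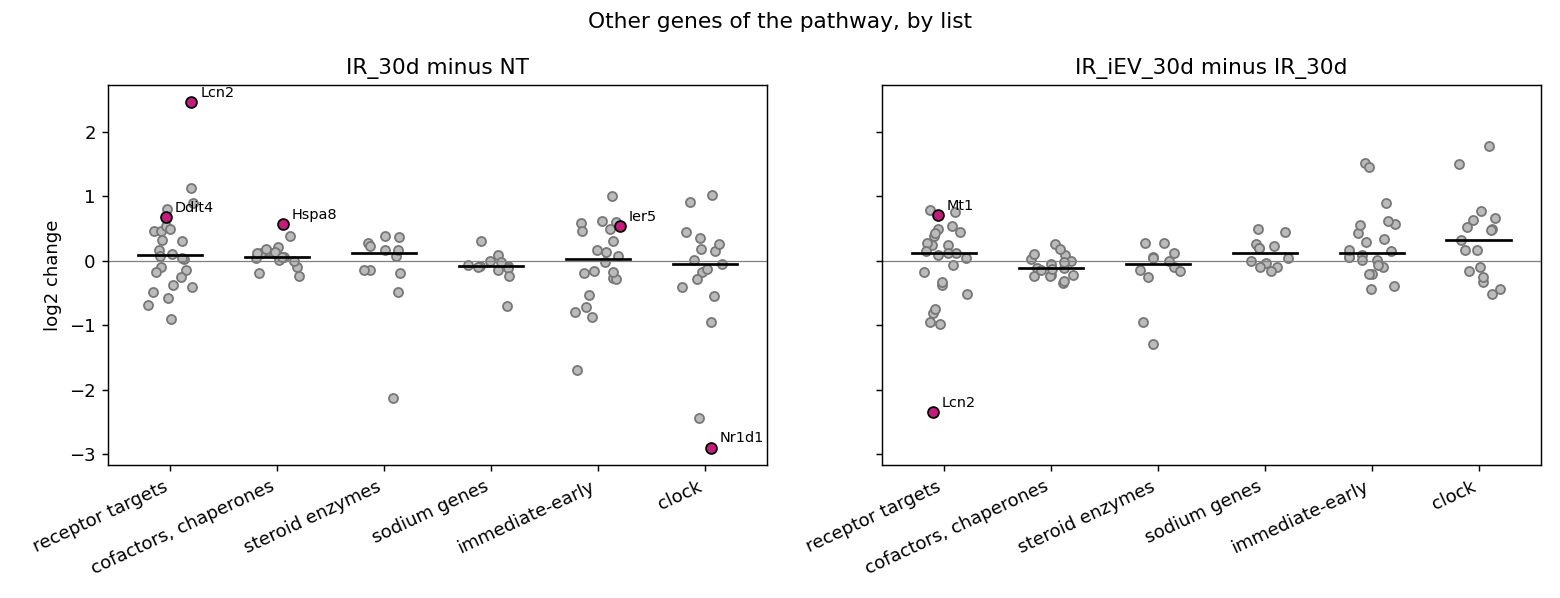
Log2 change (vertical axis) of each tested gene of 6 lists in IR_30d minus NT (left) and IR_iEV_30d minus IR_30d (right), with filled magenta points past the edgeR threshold and black lines for list medians. Lcn2 lies at 2.46 on the left and -2.35 on the right, while the list medians lie between -0.11 and 0.32.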

How the data were processed

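Whole-gland RNA of 15 samples (5 groups of 3) was sequenced after TRIzol extraction and a directional library kit, per the labels' protocols. The authors deposited whole-number read counts per gene symbol. TopHat, HTSeq, DESeq2 and GRCm39 are named in the submitters' processing notes, with no versions; annotation and strand setting are not given in the sources used here, so reads of overlapping genes on opposite strands may not be separated. Counts were filtered with edgeR 4.0.16 (minimum count 10, minimum total 15), scaled by TMM and fitted with the robust quasi-likelihood model in R 4.3.3 over all 15 libraries (10 residual degrees of freedom). P-values were Benjamini-Hochberg adjusted over all tested genes, threshold 0.05; the SE is the log2 change divided by the square root of F. CPM used effective library sizes and log2 CPM a prior count of 2. A marker level is the mean log2 CPM of the list's tested genes.

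The members and lists were chosen with earlier results of these data known. Genes named are all members, up to 4 genes of lowest p per pathway list and comparison, and the 8 genes most like Hsd11b1; Lamb3, Cyp11a1 and single cell type markers (C1qb, Col3a1, Egf, Adipoq) were chosen outside that rule, after their values were seen. Alternatives were DESeq2 1.42.0, limma-voom (limma 3.58.1), other scalings and filters, a replicate block, marker covariates (the parotid one added after the data were seen) and left-out libraries.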

Additional observations from a re-analysis of the deposited data

How the results depend on the processing

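Each comparison was refitted under alternatives that changed the tool, scaling, filter, samples in the fit, replicate block, sublingual, adipocyte and parotid adjustment, or left out 1 of the 15 libraries. No call changed sign. The number of members past the threshold in IR_4d against NT was 1 and became 0 with the marker covariates and with only the compared groups fitted, and was 0 to 1 with 1 library left out. In IR_iEV_4d against NT it was 1 and became 0 with the covariates. With the parotid level as a covariate, chosen after seeing the data, it was 0 in both of these comparisons. In IR_30d against NT and in IR_30d against IR_4d it was 1 and became 2 with limma-voom, and 2 with the replicate block, where Sgk1 passed (edgeR adjusted p = 0.00811 and 0.00815); with 1 library left out it was 1 to 2 in IR_30d against IR_4d. In IR_iEV_30d against NT the number of members called was 0. It became 1 with the covariates (Tsc22d3) and 1 with only the compared groups fitted (Zbtb16). No count is given for the day 30 minus day 4 vesicle difference, because it contains the day 30 difference that chose the members. The cause of these changes was not tested. Same-numbered samples did not pair: of 30 same-number pairs 5 correlated above 0.1 (-0.29 to 0.19), so the replicate block rests on a shared number only; it changed no other call of a member.

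Over all genes the number called ran, with 1 library left out and under the other alternatives, from 119 to 386 and 78 to 480 in IR_4d against NT (224 in the reported fit), from 355 to 606 and 491 to 1128 in IR_30d against NT (718), from 0 to 7 and 0 to 32 in IR_iEV_4d against IR_4d (5), from 9 to 192 and 68 to 408 in IR_iEV_30d against IR_30d (128), from 536 to 718 and 374 to 2280 in IR_30d against IR_4d (1092), from 135 to 792 and 64 to 865 in IR_iEV_4d against NT (371), and from 113 to 182 and 58 to 422 in IR_iEV_30d against NT (177). Hsd11b1 stayed between -1.47 and -1.30 in IR_iEV_30d minus IR_30d and between 1.64 and 1.92 in IR_30d minus NT. With 3 samples a group, changes as scattered as those of Dusp1, or of Zbtb16 in IR_4d and IR_30d, are not resolved. Zbtb16 spread little within NT and IR_iEV_30d. The SE of its difference between them was 0.36 in the fit of all groups and 0.11 with only those groups fitted.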
